A study of Mus musculus with 25 samples.

Results

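H3K27ac contacts of TKO cells were examined where KLF4 HiChIP of embryonic stem (ES) cells had an anchor at both ends. A contact is a pair of 10 kb bins of the same chromosome. It was included when either TKO list, without doxycycline (0 h) or after 24 h of it, held the pair and when each of its bins was also an anchor of at least 1 contact in the ES KLF4 list. This gave 47439 of the 109776 TKO contacts (43.2%), spread over 21689 bins. A further 36054 contacts had KLF4 at 1 anchor and 26283 at neither. The contacts were therefore chosen by measured values, the H3K27ac counts and p-values behind the TKO lists and the KLF4 counts behind the ES list, and listing itself is given as a description. KLF4 was mapped in ES cells, not in the TKO cells. Of the 24589 contacts of the ES KLF4 list, 49 had a false discovery rate (FDR) under 0.1. Nearly all KLF4 anchors thus rest on the authors' unadjusted p-values. An anchor is an end of a listed KLF4 contact, and binding of KLF4 at each bin was not measured separately.

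The TKO libraries came from cells that the labels give as V6.5 ES cells kept in 2i medium, and H3K27ac HiChIP was made in 3 libraries at 0 h and 3 after doxycycline for 24 h. The labels do not spell out TKO, do not name the altered genes and do not say what doxycycline switches, and no measurement of the targeted genes was among the files. The ES KLF4 list came from 4 libraries of V6.5 ES cells in 2i medium, which agree within sampling noise in 2 pairs and so count as 2 samples. The rest of the series, from MEFs (mouse embryonic fibroblasts) and cells at day 3 and day 6 of reprogramming, serves here only for the overlap of lists.

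KLF4 is a zinc-finger transcription factor of the naive pluripotency network, and the related KLF2 and KLF5 overlap with it in function in ES cells. KLF proteins recognise GC-rich sequences of the CACCC type in promoters and enhancers. H3K27ac marks active promoters and enhancers, and HiChIP for it counts ligated pairs of nearby DNA ends in which the mark was precipitated, so a count depends on both the acetylation of the anchors and their proximity, which cannot be told apart here. In bulk cells a contact that is weaker in every cell and a contact lost from some cells cannot be told apart either.

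Promoter sequences of genes at these anchors are shown for 4 genes, chosen because they differ in matches to a KLF motif and in their contacts at 24 h. They are RefSeq sequences of GRCm38.p6, from 250 bases before to 50 after the start, 5′ to 3′ on the gene's strand, and capitals mark the motif GGGNGTGG on either strand. *Foxd3* (chr4:99656049-99656348, plus strand) and *Nanog* (chr6:122707239-122707538, plus strand) each have 2 matches and had contacts that fell. *Pou5f1* (chr17:35505782-35506081, plus strand) has 1 match and none of its contacts passed the test. *Il6st* (chr13:112463820-112464119, plus strand) has 0 matches to this motif and 3 contacts that fell. The shorter CACCC is present in all 4 windows, with 2 matches in *Foxd3* and *Il6st*, 3 in *Nanog* and 5 in *Pou5f1*.
Foxd3: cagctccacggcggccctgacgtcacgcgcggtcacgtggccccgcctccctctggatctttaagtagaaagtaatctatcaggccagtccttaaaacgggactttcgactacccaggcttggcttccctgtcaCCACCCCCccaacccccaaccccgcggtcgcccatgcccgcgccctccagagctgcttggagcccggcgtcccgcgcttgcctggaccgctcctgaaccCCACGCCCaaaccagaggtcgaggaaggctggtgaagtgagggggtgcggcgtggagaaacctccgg
Nanog: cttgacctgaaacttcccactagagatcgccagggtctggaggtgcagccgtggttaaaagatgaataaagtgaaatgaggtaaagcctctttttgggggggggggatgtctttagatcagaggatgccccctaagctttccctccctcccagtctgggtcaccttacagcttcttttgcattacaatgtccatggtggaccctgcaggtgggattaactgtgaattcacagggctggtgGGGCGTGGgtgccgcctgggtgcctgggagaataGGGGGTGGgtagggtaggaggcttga
Pou5f1: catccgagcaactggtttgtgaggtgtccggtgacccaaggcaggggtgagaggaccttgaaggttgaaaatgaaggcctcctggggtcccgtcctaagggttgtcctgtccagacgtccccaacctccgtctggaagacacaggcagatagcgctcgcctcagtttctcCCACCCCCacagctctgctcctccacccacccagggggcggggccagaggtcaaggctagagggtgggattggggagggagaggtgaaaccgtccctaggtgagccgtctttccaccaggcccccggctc
Il6st: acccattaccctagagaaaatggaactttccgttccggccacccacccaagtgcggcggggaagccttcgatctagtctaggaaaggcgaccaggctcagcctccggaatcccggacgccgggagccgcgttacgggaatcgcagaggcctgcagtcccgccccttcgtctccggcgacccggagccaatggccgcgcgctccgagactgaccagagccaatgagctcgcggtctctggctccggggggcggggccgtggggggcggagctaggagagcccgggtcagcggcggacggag

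Across the genome the motif was in 17.6% of all 32851 RefSeq promoters. It was in 25.4% (95% Wilson interval 24.3 to 26.5) of the 5973 promoters of genes that the authors place in a bin of these contacts, and in 24.6% (20.2 to 29.6) of the 321 promoters in bins of contacts that fell. It was in 20.3% (18.99 to 21.7) of the 3509 promoters that lay only in bins of contacts with KLF4 at neither anchor. The median GC content was 61% in the first of these sets, 60% in the second and 59% in the third, against 52.7% over all promoters. The interval of the contacts that fell held the share of all contacts with KLF4 at both anchors, of which they are part. It also held the 20.3% of the neither class, so it could not tell them from either set. A match is a stretch of letters and not a binding site.

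The depth of the TKO libraries was 80527304 to 109940107 contacts at 0 h and 68319080 to 101702849 at 24 h. Replicates 2 and 3 at 0 h, and 1 and 3 at 24 h, differed by about the sampling noise (chi-square per degree of freedom 1.01 in both pairs, against 1.03 to 1.04 in the other 4), and each pair was counted as 1 sample. The test therefore compared 2 samples with 2. Nothing in the labels says that libraries came from separate cultures, so p-values measure the spread between libraries, which may be technical. The marker genes matched the labelled cells: of 8 ES genes, all had listed contacts, with a median of 12.5 at 0 h, whereas 5 of 8 fibroblast genes had any, with a median of 1.00, and 2 of 4 trophoblast and endoderm genes.

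Contacts with KLF4 at both anchors were longer than those with KLF4 at neither. The median distance was 30 kb against 20 kb, and 31.7% against 10.5% spanned at least 50 kb. For that reason every value of the neither class below, unless named as unadjusted, was weighted to the distances of the contacts with KLF4 at both anchors.

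Most contacts with KLF4 at both anchors were listed at both times. Of the 47439, 71.7% were in both lists, 18.6% at 0 h only and 9.68% at 24 h only. At the same distances, contacts with KLF4 at neither anchor were in both lists in 44.7% of cases, at 0 h only in 31.6% and at 24 h only in 23.7%. Contacts with KLF4 at 1 anchor lay between, with 56.4% in both. Read from the 0 h list, 79.4% (79.0 to 79.8) of the 42848 contacts with KLF4 at both anchors were listed again at 24 h, against 58.7% with KLF4 at neither. The classes differ in level as well, and with mean CPM (the count scaled to the contacts of its chromosome) also matched, the neither value was 73.4%. With KLF4 at 1 anchor it was 76.8% under the same matching. A list leaves out contacts below its filters, so an unlisted contact may still have counts.

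**Figure D1:**
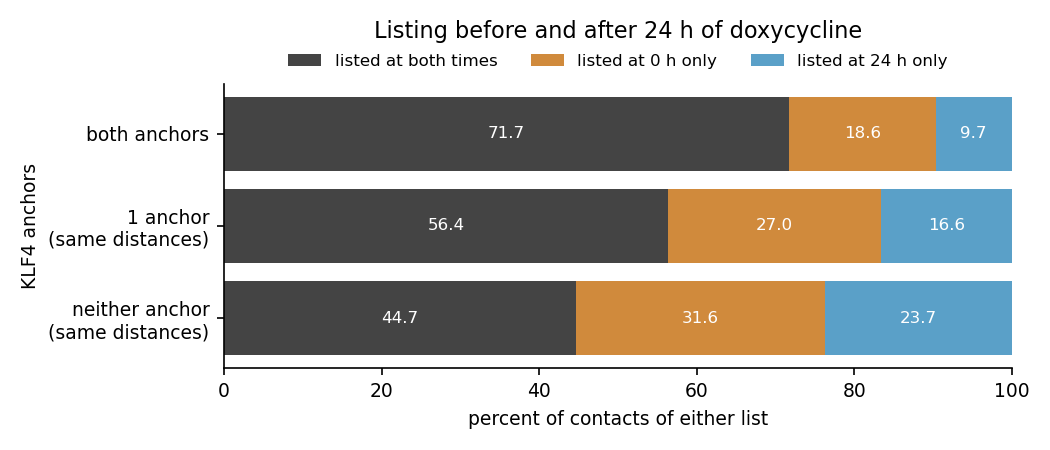
Percent of TKO H3K27ac contacts listed at both times, at 0 h only and at 24 h only (x axis), for contacts with KLF4 at both anchors, 1 anchor or neither (rows), the last 2 weighted to the distances of the first. The share in both lists is 71.7%, 56.4% and 44.7% in that order.

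Among the contacts with KLF4 at both anchors, those at long range were more often listed at 0 h only. The share at 0 h only was 8.48% for adjacent bins, 20.9% at 40 kb and 49.2% among the 970 contacts of 200 kb or more. Level falls with distance too, from a median of 11.9 CPM for adjacent bins to 5.29 CPM at 200 kb or more, and its part in the listing was not tested.

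The contacts with KLF4 at both anchors were the strongest class at either time, and their lead over the neither class was smaller at 24 h. Their median level over the 34029 contacts listed at both times was 8.30, 8.57 and 8.51 CPM in the 3 libraries at 0 h and 7.57, 7.91 and 7.70 CPM at 24 h. With KLF4 at neither anchor the median was 5.98, 6.35 and 6.16 CPM at 0 h and 5.73, 5.98 and 5.87 CPM at 24 h. In both classes each 24 h library lay below each 0 h library. The log2 ratio of the class medians was 0.46 ± 0.021 (SD, 3 libraries) at 0 h and 0.40 ± 0.0063 at 24 h, and the groups of libraries did not overlap. Because CPM is taken within each chromosome, the ratio was also formed over whole-library totals, where it was 0.36 ± 0.014 and 0.33 ± 0.0054, again without overlap. Over the 9 pairings of a 24 h with a 0 h library, the median log2 CPM ratio was -0.20 to -0.07 with KLF4 at both anchors and -0.11 to -0.00 at neither, and the difference between the classes was -0.09 to -0.07.

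**Figure D2:**
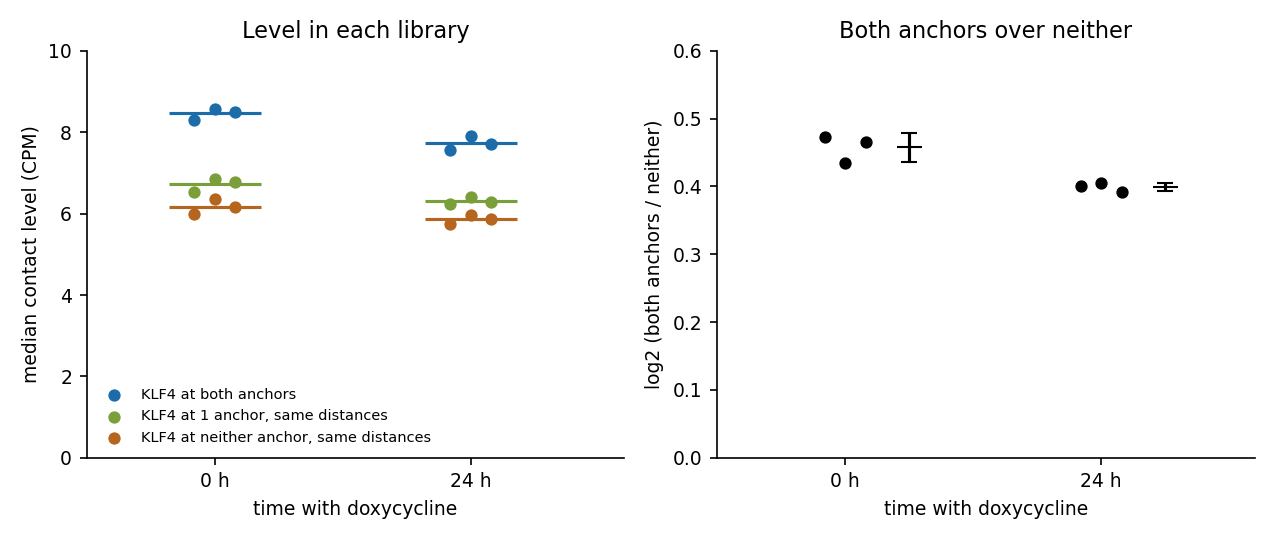
Left, median CPM of contacts listed at both times in each of 6 libraries (points) with the mean of 3 (lines), for KLF4 at both anchors, 1 anchor and neither, by time with doxycycline. Right, log2 ratio of the both-anchor to the neither median in each library, with mean ± SD; the 3 values at 24 h (0.39 to 0.40) lie below the 3 at 0 h (0.43 to 0.47).

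Single contacts were tested with edgeR's quasi-likelihood test over all 67728 contacts listed at both times, with TMM scaling and Benjamini-Hochberg adjustment, and called at an adjusted p under 0.05. Of all contacts tested, 2.62% were called, 2.04% lower and 0.576% higher at 24 h. Of the 34029 with KLF4 at both anchors, 984 were called lower (2.89%) and 167 higher (0.49%). With KLF4 at neither anchor the shares were 0.85% lower and 0.65% higher, and with distance and mean CPM both matched 1.94% lower and 1.03% higher. With KLF4 at 1 anchor, matched on both, they were 2.52% lower and 0.71% higher. The median log2 change was -0.02 with KLF4 at both anchors and 0.05 at neither, against 0.01 over all contacts tested. Without TMM the median of all contacts shifted to -0.10, that of the contacts with KLF4 at both anchors was -0.13, and 1843 were called lower and 56 higher, which moved the lower share of their calls from 85.5% to 97.1%.

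The 24 h libraries lay below all 0 h libraries in CPM at 7060 contacts with KLF4 at both anchors (20.7%), against 17.2% of all contacts tested and 11.97% of those at neither. They lay above at 3.37%, against 3.90% of all and 5.11% at neither. Among the called contacts with KLF4 at both anchors, 979 of the 984 lower and 142 of the 167 higher had libraries that did not overlap. The calls were made from the same libraries, so this is no separate support for them. CPM carries no TMM scaling, and without TMM the median log2 change of all contacts was -0.10. Separation in CPM was therefore easier for lower than for higher calls. The number of calls differed between tests and when a library was left out. Leaving out a library lowered the depth and also changed the joined samples, and these were not separated. Without 0 h replicate 1 or 24 h replicate 2, that time had only 1 joined sample. DESeq2 called 90 of these contacts lower, all of them among the 984, and 0 higher, with 1140 at an unadjusted p under 0.05 against 5284 in edgeR. Leaving out a 24 h library gave 630, 628 and 604 lower calls for replicates 1, 2 and 3. The higher calls were 83, 114 and 87 without 0 h replicates 1, 2 and 3, and 110, 88 and 89 without those of 24 h.

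Calls were concentrated among strong contacts in both classes. Only contacts listed at both times were tested, and listed contacts had CPM above 3 in each library. A weak contact that fell below that level was therefore not tested, and under 4 CPM 0% were called in either class. The part of this cut and of low counts in the shares below was not tested. Of contacts with KLF4 at both anchors, 0.35% were called lower at 5 to 6 CPM, 3.74% at 10 to 15 CPM and 14.4% of the 2302 at 20 CPM or more. At neither anchor the shares in the same classes were 0.024%, 2.70% and 6.47%, the last resting on 103 contacts. At 6 to 8 CPM the order was the other way, with 1.23% against 1.33%. The median log2 change of contacts with KLF4 at both anchors lay below that of the neither class in each of the 8 CPM classes, by steps from 0.08 against 0.11 at the weakest to -0.12 against -0.06 at the strongest.

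**Figure D3:**
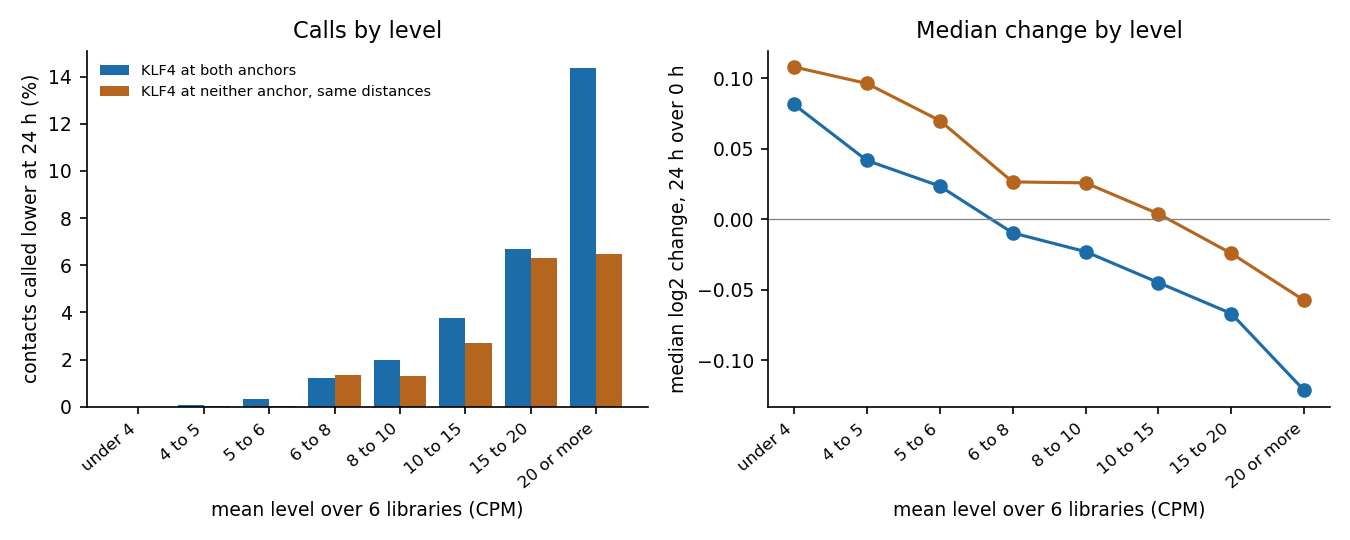
Percent of contacts called lower at 24 h (left) and median log2 change, 24 h over 0 h (right), by mean CPM over 6 libraries, for contacts with KLF4 at both anchors and at neither (weighted to the same distances). In the strongest class 14.4% against 6.47% were called lower, and the median change is lower with KLF4 at both anchors in each of the 8 classes.

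The ES KLF4 list itself divided the contacts. Of the 47439, 19517 (41.1%) were KLF4 contacts in ES cells, and the others had KLF4 anchors that the list joined to other bins. The KLF4 level of the 19517 in ES cells had a median of 5.59, 5.77, 5.26 and 4.98 CPM in the 4 libraries. They were listed at both TKO times in 86.1% of cases, against 61.7% of the others, and 4.30% against 1.52% were called lower. After weighting both sets to the distances and CPM of all contacts with KLF4 at both anchors, the shares were 3.13% and 1.94%, and the median log2 changes -0.03 and 0.00.

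A similar split followed the number of ES KLF4 contacts at the anchor that had fewer of them. Just inside the rule are the 26752 contacts with 1 KLF4 contact at that anchor, of which 2.13% were called lower with a median log2 change of 0.00. Just outside are contacts with KLF4 at 1 anchor only, unadjusted, with 1.31% and 0.03. With 5 or more KLF4 contacts at both anchors the values were 4.88% and -0.08. With distance and CPM matched, the share called lower no longer rose with the number of KLF4 contacts, at 2.89%, 2.96%, 2.95% and 2.22% for 1, 2, 3 or 4, and 5 or more. The median log2 change kept its order under that weighting, at -0.01, -0.02, -0.04 and -0.05. Contacts with KLF4 at 1 anchor only had 2.52% called lower and a median of 0.00 under the same weighting.

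Most contacts with KLF4 at both anchors were also listed in ES cells. The ES H3K27ac list, from the same assay, held 74.8% of them, against 30.5% of those with KLF4 at neither anchor. The ES Hi-C list, from another assay, held 54.2% against 43.7%. The MEF H3K27ac list held 27.1% against 13.0%, and the MEF Hi-C list 38.2% against 31.8%. KLF4 contacts of reprogramming cells were found at 18.7% against 4.69% for day 3, and at 4.29% against 0.52% for day 6. With CPM also matched the neither values were, in the same order, 45.3%, 47.1%, 16.5%, 35.0%, 5.71% and 0.92%.

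The share called lower differed between contacts present in and absent from these lists, and not in 1 direction. Of those not in the ES H3K27ac list 0.47% were called lower, against 3.28% of those in it, or 0.95% against 2.97% when matched for distance and CPM. For the day 3 KLF4 list the shares were 2.64% absent and 3.76% present, and 3.00% and 2.57% when matched. Of those not in the ES Hi-C list 4.14% were called lower and 0.26% higher, with a median log2 change of -0.06. Of those in it 1.95% were lower and 0.66% higher, with a median of 0.01, and matching for distance and CPM left 4.10% and 1.98% lower. Contacts absent from the MEF H3K27ac list were called lower in 3.24% of cases against 2.16% of those present, or 3.77% against 1.67% when matched. These are counts over contacts that share bins and libraries, without a test of the difference.

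H3K27ac peaks, as the authors annotate them per bin, lay in both bins at both times at 54.1% of contacts with KLF4 at both anchors, against 32.9% at neither. A bin whose peak was annotated at 0 h only was found at 8.96% against 8.83%, and one at 24 h only at 4.97% against 9.48%. Contacts with peaks in both bins at both times had 4.23% called lower, more than those where a bin had no peak, with 0.65%. With distance and CPM matched the shares were 3.38% and 0.84%. Where a bin had its peak at 24 h only, 2 were called lower and 10 higher of 1213. Peaks lay in both bins at both times at 860 of the 984 contacts called lower, and at 20350 of the 34029 tested. Most lower calls were thus at anchors annotated with peaks before and after doxycycline, and so were most contacts tested. The annotation gives the presence of a peak and not its height.

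**Figure D4:**
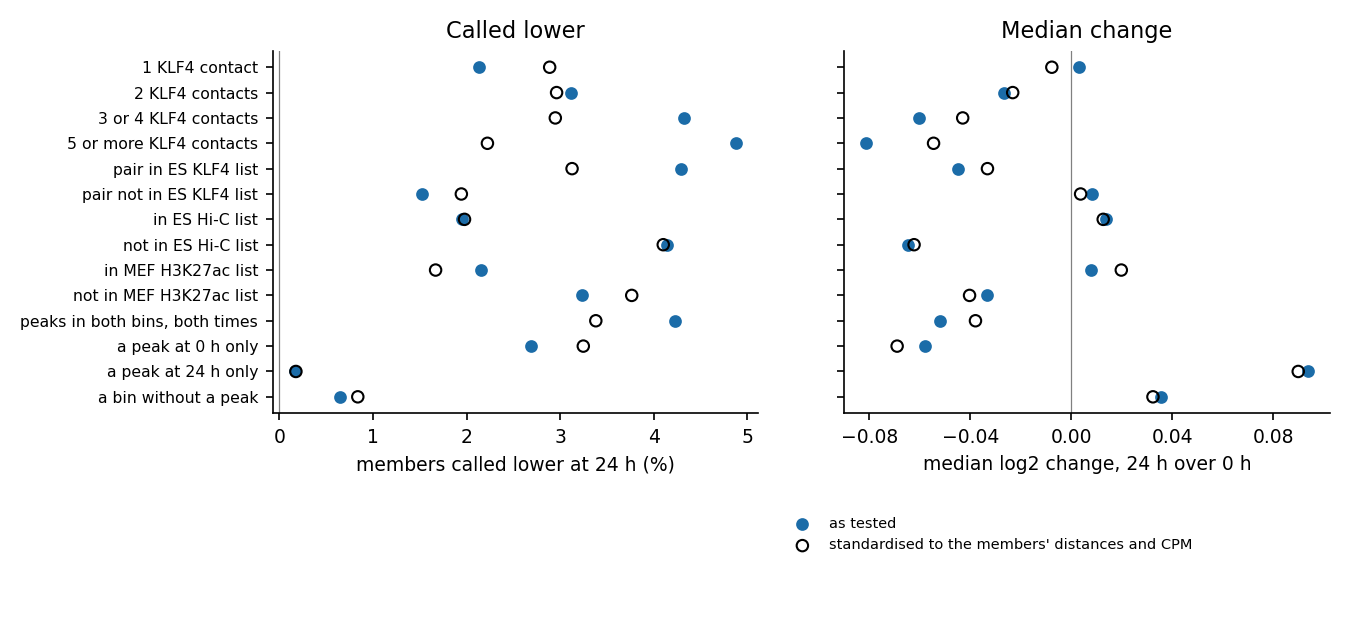
Percent called lower at 24 h (left) and median log2 change (right) for subsets of the tested contacts with KLF4 at both anchors, as tested (filled) and weighted to the distances and mean CPM of them all (open). Contacts not in the ES Hi-C list (4.14%) and with peaks in both bins at both times (4.23%) exceed those in the Hi-C list (1.95%) and those with a bin without a peak (0.65%).

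Genes lay in both bins at 10.5% of contacts with KLF4 at both anchors, against 3.82% at neither, and in neither bin at 49.7% against 67.3%. Contacts without a gene in either bin were called lower in 3.42% of cases, those with a gene in 1 bin in 2.54% and those with genes in both in 1.72%. Both anchors lay in the same ES topologically associating domain at 98.1% of the 46132 contacts whose bins were both within domains. The share was 97.5% at neither and 97.9% over all contacts.

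The largest decreases were ranked by the fitted change among called contacts whose libraries did not overlap. The first was a 20 kb contact on chromosome 4 between chr4:99630001-99640000 and chr4:99650001-99660000, in which *Foxd3* starts. *Foxd3* encodes a forkhead transcription factor of pluripotent and neural crest cells. The contact had 15.6, 19.4 and 18.6 CPM at 0 h and 5.80, 6.33 and 5.89 CPM at 24 h. The 3 libraries of 24 h were well below those of 0 h, and the log2 change was -1.45 ± 0.17 (SE; edgeR adjusted p = 1.23e-14).

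Another large decrease, and the one with the smallest p among the 10, joined bins over *Pramel7* and *Pramel6*, members of a gene family active in early embryos and ES cells, at chr2:87480001-87490000 and chr2:87510001-87520000. Its level was 39.9, 42.5 and 42.2 CPM at 0 h and 14.2, 14.9 and 14.4 CPM at 24 h. The 3 libraries of each time lay close together, and the log2 change was -1.38 ± 0.12 (edgeR adjusted p = 1.04e-26).

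A further pair of decreases shared the bin chr16:25030001-25040000, between genes and nearest to *Lpp*, which encodes a focal adhesion protein. Its contact with the bin 20 kb away, which holds the non-coding *A230028O05Rik*, had 34.2, 30.8 and 40.1 CPM at 0 h and 11.8, 15.1 and 13.2 CPM at 24 h. That with the bin 30 kb away had 15.8, 18.1 and 18.3 CPM at 0 h and 6.10, 4.86 and 7.71 CPM at 24 h. Both fell, with log2 changes of -1.26 ± 0.15 and -1.39 ± 0.20 (edgeR adjusted p = 7.13e-14 and 1.49e-08), and since they share an anchor they are not independent.

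The longest of the 10 joined bins 280 kb apart, nearest to *Epha2*, an ephrin receptor, and *Fblim1*, an adhesion protein. Its level was 9.64, 10.3 and 11.1 CPM at 0 h and 3.14, 3.90 and 3.46 CPM at 24 h, a log2 change of -1.44 ± 0.21 (edgeR adjusted p = 1.70e-08). A further 4 had log2 changes between -1.31 and -1.20. Their nearest genes were *Necap1* and *Clec4a1*, olfactory receptor genes of chromosome 17, *Tle4*, and *Pcdh9*. Some were far off, with bins 61818 and 231818 bases from *Tle4*, and 1543700 and 1533700 bases from *Pcdh9*. The *Tle4* contact lost its call without 0 h replicate 1 or without 24 h replicate 2 or 3. Of the 10 largest decreases, 9 had H3K27ac peaks in both bins at both times, 8 had no gene of the authors' in either bin, and 0 were in the ES Hi-C or the MEF H3K27ac list. In DESeq2, 2 of the 10 kept their call, the *Pramel7* contact and the 20 kb contact near *Lpp*.

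The largest increases were weaker contacts. The first joined the bin of *Kdelr1*, a receptor that returns proteins to the endoplasmic reticulum, and *Grin2d*, a glutamate receptor subunit, to that of *Syngr4* and *Tmem143*, at chr7:45870001-45880000 and chr7:45890001-45900000. It had 4.29, 4.25 and 6.61 CPM at 0 h and 7.83, 10.4 and 11.2 CPM at 24 h. The groups did not overlap, and the log2 change was 1.14 ± 0.20 (edgeR adjusted p = 1.23e-05).

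The strongest of the 10 increases had 14.1, 12.5 and 12.4 CPM at 0 h and 24.2, 27.5 and 20.3 CPM at 24 h, a log2 change of 0.98 ± 0.18 (edgeR adjusted p = 4.91e-05). It lay between genes on chromosome 19, nearest to *Xpnpep1*, an aminopeptidase gene. The others lay at *Cnnm2*, *Epb41l4a*, *Jpt2*, *Lamp2*, *Pofut2*, *Susd6*, *Top3b* and a stretch between *Kazald1* and *Tlx1*. Of the 10, 6 lost their call when 1 of several libraries was left out, namely those at *Cnnm2*, *Epb41l4a*, *Jpt2*, *Lamp2*, *Susd6* and *Top3b*, and each of the 6 libraries ended at least 1 of these calls. In DESeq2 none of the 10 was called. In 6 of the 10 a bin had no annotated peak, and 6 were in the ES Hi-C list.

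The strongest contacts at 0 h were between adjacent or near bins. That at *2410137M14Rik* and the histocompatibility gene *H2-M5* on chromosome 17 had 164, 186 and 181 CPM at 0 h and 104, 138 and 120 CPM at 24 h, and fell by 0.40 on the log2 scale (SE 0.098, edgeR adjusted p = 0.0051). That of adjacent bins beside *Ppp1r12a*, a myosin phosphatase subunit gene, had 114, 121 and 136 CPM at 0 h and 70.1, 76.9 and 72.3 CPM at 24 h, and fell by 0.64 (SE 0.099, edgeR adjusted p = 1.56e-07). Adjacent bins at *Nlrp12*, an innate immune receptor gene, had 112, 130 and 127 CPM and then 82.2, 103 and 80.9 CPM, a log2 change of -0.28 ± 0.097 that did not pass the test (edgeR adjusted p = 0.11). These groups of libraries did not overlap at either contact. The contact of *Malat1* with *Neat1*, which are neighbouring nuclear non-coding RNA genes, had 99.4, 117 and 116 CPM at 0 h and 64.9, 67.9 and 75.8 CPM at 24 h. It fell by 0.56 (SE 0.11, edgeR adjusted p = 1.13e-04). In that of 2 bins beside *Klf5* the level was 102, 116 and 118 CPM at 0 h and 84.8, 92.3 and 92.1 CPM at 24 h, a log2 change of -0.18 ± 0.099 that did not pass the test (edgeR adjusted p = 0.41).

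Genes of 6 fixed lists were then read. These were core and naive factors, the KLF family, DNA methylation, signalling, ES markers, and primed and early lineage genes. Their bins, taken from the authors' gene column or else from the RefSeq start, held 202 tested contacts with KLF4 at both anchors. For some genes, among them *Tet1*, *Lifr* and *Otx2*, the authors' bin was not that of the RefSeq start. Of the 202 contacts, 18 (8.91%) were called lower and 0 higher in edgeR. Over all contacts tested 2.04% were called lower, and over all with KLF4 at both anchors 2.89%. These shares were not matched for distance or CPM, and 4 of the 18 calls were contacts of the 1 bin of *Foxd3*. At an unadjusted p under 0.05, 48 of the 202 were lower and 10 higher, and DESeq2 called 3 lower and 0 higher. The median log2 change was -0.08, against 0.01 over all contacts tested, and 59.4% of the changes were below 0, against 48.9% of all. In each of the 18 the 24 h libraries lay below all 0 h libraries in CPM, which is no separate support for calls made from the same libraries. Both bins of each had H3K27ac peaks at both times, and 11 of the 18 were ES KLF4 contacts.

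Of the 12 core and naive factors, 9 had contacts with KLF4 at both anchors, and 5 of their 62 tested contacts (8.06%) were called lower, with a median log2 change of -0.15. *Nanog*, a homeodomain factor of the core network, had 3 of 14 called. Its strongest called contact joined the *Nanog* bin to the adjacent chr6:122690001-122700000, with 31.5, 38.0 and 36.4 CPM at 0 h and 20.2, 22.9 and 26 CPM at 24 h (log2 change -0.48 ± 0.12, edgeR adjusted p = 0.0051). That call was lost without 24 h replicate 2.

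The *Nanog* contact with a bin over *Slc2a3*, a glucose transporter gene 60 kb away, changed more. It had 29.9, 31.2 and 38.3 CPM at 0 h and 15.2, 19.6 and 18.9 CPM at 24 h, and the groups were far apart. The log2 change was -0.74 ± 0.12 (edgeR adjusted p = 1.86e-06), and this call held in DESeq2 and without any 1 library. That with the next *Slc2a3* bin changed by -0.62 ± 0.18 (edgeR adjusted p = 0.023) and lost its call without 0 h replicate 1 or 2 or without 24 h replicate 1 or 3.

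*Tbx3*, a T-box factor of the naive state, had 2 of 13 called, at 10 and 20 kb, with log2 changes of -0.51 ± 0.14 and -0.49 ± 0.15 (edgeR adjusted p = 0.024 and 0.040). Each lost its call without 0 h replicate 1 or 24 h replicate 1, the first also without replicate 3 of either time and the second without replicate 2 of either time. *Pou5f1*, which encodes the core factor OCT4, had none of 7 tested contacts called, the smallest edgeR adjusted p being 0.206, with changes from -0.15 to 0.43. Its strongest had 39.3, 41.7 and 40.1 CPM at 0 h and 34.1, 42.7 and 35.4 CPM at 24 h, and the groups overlapped. *Sall4*, *Zfp42*, *Prdm14* and *Mycn* had no call among 8, 4, 6 and 7 tested contacts. *Mycn* was listed with 13 contacts at 0 h and 8 at 24 h. *Sox2*, *Esrrb* and *Tfcp2l1* had contacts but none with KLF4 at both anchors.

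The KLF family had 1 call among 47 tested contacts (2.13%), about the share over all contacts. *Klf4* had 6 contacts with KLF4 at both anchors at 0 h and 3 at 24 h. A 70 kb contact of its bin had 7.56, 10.5 and 6.48 CPM at 0 h and 3.63, 5.20 and 4.47 CPM at 24 h, and fell (log2 change -0.75 ± 0.21, edgeR adjusted p = 0.020). The call was lost without 0 h replicate 2 or without 24 h replicate 1 or 3. A 60 kb contact had a log2 change of -0.46 ± 0.15 (edgeR adjusted p = 0.072), and the adjacent one 0.41 ± 0.18 (edgeR adjusted p = 0.26). *Klf2*, *Klf5* and *Klf9* kept 8 of 8, 7 of 7 and 19 of 20 contacts of the 0 h list at 24 h, with no call. In the same order, their changes ran from -0.39 to 0.42, from -0.41 to 0.27 and from -0.43 to 0.60.

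*Il6st*, which encodes the gp130 subunit of the LIF receptor, had 3 of 8 contacts called. That with a bin 50 kb away had 24.9, 23.8 and 24.8 CPM at 0 h and 10.4, 13.0 and 16 CPM at 24 h, a log2 change of -0.79 ± 0.15 (edgeR adjusted p = 3.00e-05). The one 30 kb away had 13.7, 12.8 and 14.1 CPM and then 5.38, 7.67 and 7.47 CPM, a change of -0.86 ± 0.19 (edgeR adjusted p = 0.0012). The 20 kb contact, at -0.46 ± 0.14 (edgeR adjusted p = 0.047), lost its call without any 1 of the 6 libraries. These 3 were in the MEF H3K27ac list as well. *Lifr*, the other receptor chain, and *Stat3*, their signal transducer, had 0 of 4 and 0 of 3 called, with medians of 0.26 and 0.06. Over the 29 tested contacts of the signalling list, which come from 7 of its 12 genes, the median was 0.05. *Id1*, a BMP target that inhibits basic helix-loop-helix factors, went from 6 listed contacts to 1.

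*Tet2*, an enzyme that oxidises 5-methylcytosine, had 2 of 5 contacts called, both to bins within the gene. The 20 kb contact had 10.8, 17.9 and 16.5 CPM at 0 h and 8.37, 8.60 and 9.34 CPM at 24 h (log2 change -0.64 ± 0.16, edgeR adjusted p = 0.0055). The adjacent one had 20, 22.8 and 22.3 CPM and then 14.3, 14.9 and 13.1 CPM (-0.51 ± 0.13, edgeR adjusted p = 0.012). The first lost its call without 0 h replicate 2 or 3 or 24 h replicate 2, and the second without 24 h replicate 3. *Tet1*, of the same family, had 0 of 6 called, with a median of 0.05.

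Among ES marker genes 3 of 40 tested contacts were called. *Dppa5a*, an ES cell RNA-binding protein gene, had 2 of 7. Its contact with *Ooep* had 78.4, 90.8 and 89.0 CPM at 0 h and 54.7, 66.5 and 59.2 CPM at 24 h (log2 change -0.36 ± 0.10, edgeR adjusted p = 0.024). That with *Eef1a1*, 120 kb away, changed by -0.71 ± 0.22 (edgeR adjusted p = 0.041) and lost its call with the replicate number as a block. The first was lost without any 1 library except 24 h replicate 2, and the second without any 1 except 0 h replicate 2. The third call was between *Fbxo15* and *Timm21* (log2 change -0.49 ± 0.13, edgeR adjusted p = 0.013). It was lost without 0 h replicate 3 or 24 h replicate 1 or 3. *Gdf3* had 9 listed contacts at 0 h and 5 at 24 h.

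In the list of primed and early lineage genes, 2 of 12 genes had contacts with KLF4 at both anchors. *Foxd3*, placed by its RefSeq start because the authors' column names *Gm12688* there, had 4 of 5 called, including the largest decrease above. The other called contacts of its bin reached the adjacent bins on either side and the bin 20 kb downstream. The 20 kb contact had 18.99, 16.9 and 17.4 CPM at 0 h and 8.95, 8.93 and 5.28 CPM at 24 h (log2 change -1.12 ± 0.16, edgeR adjusted p = 1.96e-09). The adjacent downstream one had 15.4, 20.3 and 21.9 CPM and then 9.19, 9.26 and 8.74 CPM (-0.96 ± 0.15, edgeR adjusted p = 1.47e-07), and the adjacent upstream one changed by -0.85 ± 0.18 (edgeR adjusted p = 6.30e-04). The calls of all 4 held without any 1 library, and 1 of the 4 held in DESeq2. *Otx2*, a homeodomain factor of the primed state, had 0 of 5 called, with changes from -0.51 to 0.06.

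**Figure D5:**
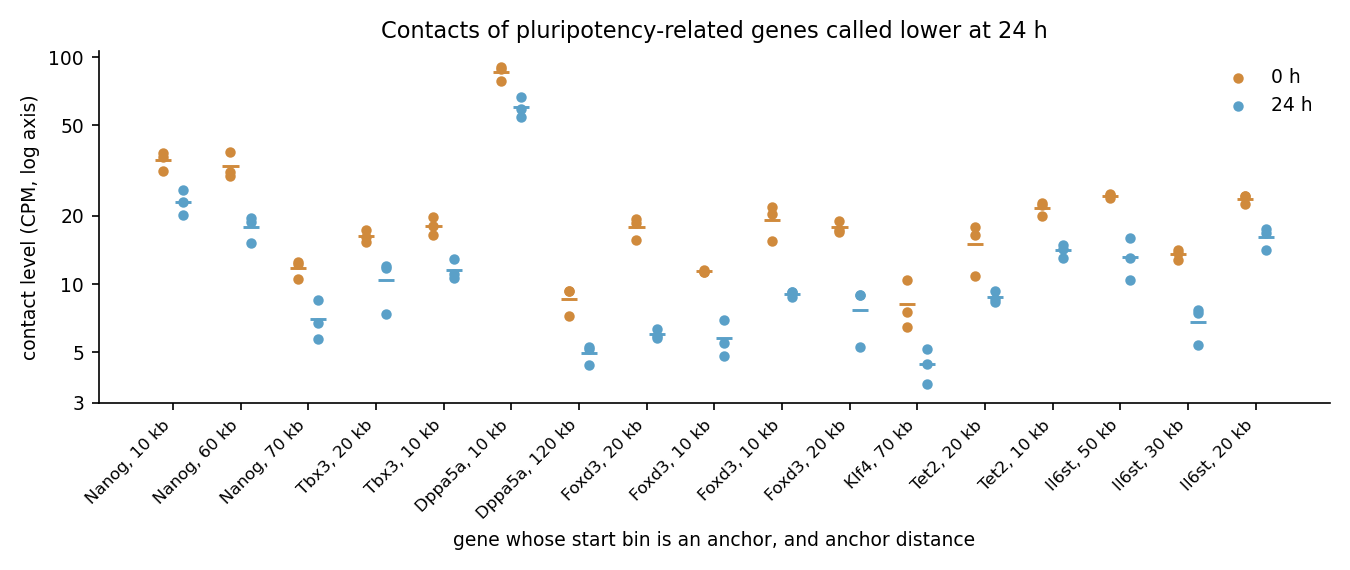
CPM in each of 3 libraries at 0 h and 3 at 24 h (points, log axis; lines are means) for called contacts of 7 genes outside chromosome 18, labelled by gene and anchor distance. At each contact the 24 h libraries lie below the 0 h libraries; the *Foxd3* 20 kb contact goes from a mean of 17.9 to 6.01 CPM.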

How the data were processed

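H3K27ac HiChIP of TKO cells at 0 h and 24 h (3 libraries each) and KLF4 HiChIP of ES cells (4) were used. Per the file headers, each deposited list gives 1 p-value for each contact and, for each library, its raw count, its CPM and a ratio to the count normal for the distance. The build is mm10 and the aligner Bowtie2 2.2.3, per the submitters' processing notes; the contact caller is not given in the sources used here. Deposited TKO contacts had CPM above 3 in all 3 libraries and p-values under 0.1; CPM is relative to the contacts of the chromosome. The deposited Hi-C signal and the deposited score of the ES domain list served only for overlap of positions. The lists hold 10 kb bins and, in TKO, the authors' genes and peaks.

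Raw counts were tested with edgeR 4.0.16 in R 4.3.3. Libraries with a chi-square p of at least 0.01, where other pairs were lower, were summed; this limit was set after the p-values (0.048 at 0 h, 0.099 at 24 h) were seen. On simulated data 83.5% of 200 contacts changed 2-fold were recovered among 67722, for TKO 24 h against 0 h. Same-numbered replicates were not paired: their deviations correlated between -0.0069 and 0.0053. The neither class was weighted to the members' 13 distance classes. Named contacts were the 10 largest changes in each direction among called contacts without overlap, the 5 strongest at 0 h and the called contacts of fixed gene lists. Of the largest decreases, 1 is not reported here. Members and lists were chosen with earlier results of these data known. Percent intervals are 95% Wilson and cover counting error only. DESeq2 1.42.0 and other settings are alternatives.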

Additional observations from a re-analysis of the deposited data

How the results depend on the processing

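No result of the comparison of contacts with KLF4 at both anchors and at neither changed sign under any alternative run, but sizes moved. All tested contacts called (1774), those with KLF4 at both anchors called lower (984) and higher (167), and the excess in the percent called lower over the neither class (2.04) were as follows. Contact totals without TMM gave 2825, 1843, 56 and 3.42, and totals of each chromosome 2771, 1795, 53 and 3.33. DESeq2 gave 105, 90, 0 and 0.24. Bins at least 20 kb apart gave 882, 529, 75 and 1.59, and at least 50 kb apart 112, 73, 6 and 0.51. The 6 libraries kept separate gave an excess of 2.31, and with the replicate block 2.40, with 1143 lower and 196 higher. Same-numbered replicates were not paired, and the block ended 1 call among the named contacts. Leaving out each library in turn gave 1028 to 1205 calls, 604 to 698 lower, 83 to 114 higher and an excess of 1.26 to 1.44.

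KLF4 anchors with at least 2 KLF4 contacts gave 598 lower, 70 higher and an excess of 2.81, and contacts that are themselves ES KLF4 contacts 88 higher and 3.35. Anchors from KLF4 contacts with FDR under 0.1, which were 85 bins, gave 11 lower, 0 higher (edgeR) and 17.2. The difference in the percent higher was then -0.35 (-0.16 as reported). In this run and that with at least 2 KLF4 contacts, here and below, the comparison class was not the neither class. It also held contacts whose bins were other KLF4 anchors. With distance and mean CPM matched the excess lower was 0.95 and the difference higher -0.54, and with chromosome also matched 0.99 and -0.64.

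The excess in the percent of the 0 h list still listed at 24 h (20.7) was 21.9 at 20 kb or more, 22.4 with at least 2 KLF4 contacts, 34.3 with FDR under 0.1, 25.4 for ES KLF4 contacts, 21.9 without bins next to a KLF4 anchor, 13.7 unweighted, 5.98 with CPM matched, 5.95 with chromosome too, 18.9 with the authors' p under 0.01 and 12.5 with bins up to 1 away. The change of the log2 level ratio (-0.06) was -0.081 at 20 kb or more, -0.12 at 50 kb or more, -0.088 with at least 2 KLF4 contacts, -0.32 with FDR under 0.1, -0.084 for ES KLF4 contacts, -0.034 over library totals and -0.07 to -0.05 without 1 library. The excess in the ES Hi-C list (10.6) was 12.8 with chromosome and 7.15 with CPM matched. That of peaks in both bins at both times (21.2) was 24.8 unweighted, 22.03 with chromosome, 11.01 with CPM and 10.9 with both. The count cutoff common to all chromosomes, chosen after seeing the data, gave an excess of 2.58 lower and 19.9 listed. Why these values moved was not tested, except that distance, stricter anchors and left-out libraries leave fewer contacts or reads. Of 42 named contacts, DESeq2 ended the call of 33 and leaving out a library that of 9 to 13.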

Other observations

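Contacts with KLF4 at both anchors formed a denser set than those with KLF4 at neither. Each of the 21689 bins held a median of 3 such contacts, and 37.2% held at least 5. In the neither class, unadjusted for distance or level, the 24802 bins held a median of 1 contact, and 9.08% held at least 5. Chained through shared bins, the contacts with KLF4 at both anchors fell into 2994 groups, the largest of 276 bins.

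The bins with most contacts were on chromosome 19. The bin of *Snx15*, a sorting nexin gene, and that of *Bscl2* and *Gng3* had 38 each, and *Rcor2*, which encodes a REST corepressor subunit, had 37. With 1 count cutoff for all chromosomes, which left 31208 of the 47439 contacts, the leading bin was that of *Hes1*, a Notch-responsive transcriptional repressor, on chromosome 16 at 30060001 to 30070000. It had 21 contacts past that cutoff at 0 h and 14 at 24 h. Of its 29 tested contacts 3 were called lower, with a median log2 change of -0.22. *Rcor2* had 28 tested contacts with a median of -0.13, and *Bscl2* and *Gng3* had 34 with a median of -0.00.

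Chromosomes differed in the change of these contacts. The median log2 change was -0.12 on chromosome 13 and 0.02 on chromosome 15, the lowest and highest as tested. With distance and CPM matched it was -0.13 on chromosome 13, still the lowest, 0.01 on chromosome 15 and 0.03 on chromosome 19, then the highest. The share called lower was 4.59% of 1023 contacts on chromosome 1 and 1.38% of 2898 on chromosome 19. With distance and CPM matched the shares were 6.54% and 0.88%. CPM is relative to the contacts of each chromosome, so matching on it did not match counts. In 0 h replicate 1, 14.1 CPM was 42 counts at a chromosome 19 contact and 15.6 CPM was 105 at a chromosome 4 contact. Calls depend on counts, and their part in these shares was not tested.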
